A study of Mus musculus with 9 samples.

Results

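The genes described here are Nfe2l2, which encodes the transcription factor NRF2, and 9 genes that NRF2 is known to activate in the defence against oxidants: Nqo1, Gclc, Gclm, Gsr, Gpx2, Srxn1, Txnrd1, G6pdx and Osgin1. They were taken by symbol, 10 of the 55401 genes in the deposited count table, for their known tie to NRF2, with no threshold on a measured value, though earlier results of these data were known when they were chosen. Their transcripts were measured by RNA sequencing of whole liver from 9 female mice that were 6 weeks old at the start, in 3 groups of 3 livers. Healthy livers came from mice given neither oncogene nor virus. Untreated HCC livers carried tumors driven by RAS/AKT, that is, an activated, membrane-bound AKT and a mutant NRAS delivered on sleeping beauty transposon plasmids by a rapid tail vein injection, and these mice received a blank AAV8 virus 1 week later. miR-22-treated HCC livers had the same oncogenes and, in place of the blank virus, AAV8 carrying the microRNA miR-22. Both HCC groups were collected 5 weeks after the oncogenes, which was 4 weeks after the virus. The strain is FVB/N by the protocols and C57BL/6 by the sample labels, the protocol text also lists a plasmid for β-catenin that belongs to another model, and no week of collection is given for the healthy livers. The promoters on the plasmids, EF1α and CAGGS, are active in many cell types. Because healthy mice had no injection, effects of tumor, plasmids and blank virus cannot be told apart in comparisons with them.

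NRF2 is made continuously and destroyed continuously: KEAP1, an adaptor of the CUL3 ubiquitin ligase, binds it and sends it to the proteasome until oxidants or electrophiles modify cysteines of KEAP1. NRF2 that escapes enters the nucleus, pairs with a small MAF protein (MAFF, MAFG or MAFK) and binds antioxidant response elements in its target genes, where BACH1 competes for the same sites. The target genes build and recycle glutathione, run the thioredoxin and peroxiredoxin system, reduce quinones and supply NADPH. NRF2 is regulated largely as a protein, so the level of Nfe2l2 mRNA is not a measure of its activity.

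The core letters of the antioxidant response element, TGACNNNGC, were searched on both strands in the 1000 bases before the canonical start of each gene in GRCm39. They are shown because this is the sequence through which NRF2 and BACH1 act. A match was found for 4 of the 10 genes, against 28.2% of 21770 protein-coding promoters of the same length and 29.6% of those of 13667 tested genes. The stricter TGACTCAGC, which is contained in the core, was found in front of 0 of the 10 genes and in 1.33% of all promoters. These are matches of letters in this window alone, and elements elsewhere in the genes were not searched. In the following sequences, printed 5′ to 3′ on the strand of the match, capitals mark the core.
Nfe2l2, chr2:75535231-75535255, minus strand, 254 to 262 bases before the start: agcccaccTGACTCCGCcatgcccc
Gclm, chr3:122039064-122039088, minus strand, 46 to 54 bases before the start: gtgagagtTGACGGTGCgcccggga
Gsr, chr8:34142514-34142538, plus strand, 736 to 744 bases before the start: gtttcttaTGACTTAGCagtattta
Gsr, chr8:34142742-34142766, minus strand, 508 to 516 bases before the start: ggtcacagTGACCAAGCggctttct
Txnrd1, chr10:82694634-82694658, minus strand, 363 to 371 bases before the start: actggctgTGACCCTGCcaaatagt
Txnrd1, chr10:82694940-82694964, minus strand, 57 to 65 bases before the start: tgtcagaaTGACAAAGCaaaaatcc

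Libraries held 16664659 to 23908392 counts each, and the genes that were tested had 103 to 14418 counts in a liver. Values are given as CPM, counts scaled to a common library total, after TMM scaling, which sets libraries to a common level through the bulk of genes, and errors are SD with n = 3. Of the 55401 genes, 15717 had enough counts to be tested, among them 9 of the 10 genes. A difference was called at an adjusted p under 0.05 in edgeR's quasi-likelihood test with a fold change over 1.5, and "rose" or "fell" is used only of such differences. The labels number the livers without naming litters or cages, so p-values measure the spread between these livers. Without TMM, scaling by total counts moved the median log2 fold change of all tested genes to 0.43 for untreated HCC against healthy livers, −0.23 for miR-22-treated against untreated HCC and 0.21 for miR-22-treated HCC against healthy livers. The share of called genes that were higher then went from 55.7% to 80.0%, from 60.4% to 27.8% and from 70.6% to 85.2%.

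Markers of cell types also differed between the groups, and in bulk RNA fewer cells of a type and less RNA per cell cannot be told apart. Of 10 hepatocyte markers, 9 fell in untreated HCC, and their summed level was 134664 to 139418 CPM in healthy livers, 57047 to 71118 CPM in untreated HCC and 84442 to 105108 CPM in miR-22-treated HCC. Of 8 ductal and progenitor markers, 7 rose in untreated HCC and 4 fell with miR-22, with sums of 119 to 128, 3586 to 6553 and 1747 to 2900 CPM. In untreated and treated HCC most of these sums was Spp1, at means of 4620 and 2017 CPM. Krt19 was the one not called in untreated HCC (log2 fold change 0.89, edgeR's adjusted p = 0.151). Stellate cell and fibroblast markers summed to 353 to 423, 844 to 974 and 697 to 794 CPM, with 4 of 8 higher and 2 lower in untreated HCC. Macrophage markers summed to 488 to 613, 610.1 to 680 and 698 to 737 CPM (3 of 11 higher, 1 lower), and endothelial markers to 361 to 449, 229 to 288 and 299 to 386 CPM (4 of 8 lower). The 8 neutrophil markers summed to 1.76 to 4.59, 17.9 to 23.0 and 17.0 to 25.7 CPM, with 4 of 4 tested higher in untreated HCC, Ly6g at 0 in healthy livers and untreated HCC, and Elane at 0 in healthy livers. The 9 lymphocyte markers summed to 6.15 to 8.80, 7.73 to 10.1 and 7.46 to 11.2 CPM, 1 of 8 tested higher and 1 lower. The 5 liver cancer markers all rose in untreated HCC, from sums of 19.99 to 23.4 CPM to 1652 to 2764 CPM, with 1000.1 to 1519 CPM in miR-22-treated HCC. With total-count scaling 6 hepatocyte markers were called lower in untreated HCC and 3 higher with miR-22, 8 ductal markers higher and then 7 lower, 5 stellate markers higher and 1 lower, 5 macrophage markers higher and 0 lower, 1 endothelial marker higher and 2 lower, and 1 lymphocyte marker higher and 0 lower in untreated HCC. The part of these differences in the values of the NRF2 genes was not tested.

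In untreated HCC, 3 of the 9 tested genes rose against healthy livers and 0 fell, where 40.8% of all tested genes were called, 22.7% higher and 18.1% lower. The 3 were Nfe2l2 itself, Srxn1 and G6pdx. Another 4, Gclc, Gclm, Gsr and Txnrd1, had an adjusted p under 0.05 with a fold change under 1.5, Gclm on the lower side. An adjusted p under 0.05 alone was reached by 7 of the 9 genes and by 8838 of the 15717 tested genes. Nqo1 and Osgin1 passed neither threshold, and Gpx2 was too low to test. The livers of the 2 groups did not overlap for 7 of the 9 genes, 6 with higher and 1 with lower levels in untreated HCC, against 65.3% of all tested genes, 33.9% higher and 31.4% lower. The median log2 fold change was 0.48 against 0.012 for all tested genes. With total-count scaling 7 of the 9 genes were called, all higher, as were 7478 of the 15717 tested genes in either direction.

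With miR-22, 1 gene, Srxn1, fell against untreated HCC and 0 rose, where 13.8% of all tested genes were called, 8.32% higher and 5.47% lower. Nfe2l2, G6pdx, Txnrd1 and Gclm had an adjusted p under 0.05 with a fold change under 1.5. That adjusted p alone was reached by 5 of the 9 genes and by 3777 of the 15717 tested genes. For 6 of the 9 genes the livers did not overlap, 5 with lower and 1 with higher levels in treated HCC, against 39.3% of all tested genes, 19.6% lower and 19.7% higher. The median log2 fold change was −0.32 against 0.0020 for all tested genes. Between miR-22-treated HCC and healthy livers, Nfe2l2, Srxn1 and G6pdx were called, all higher, where 24% of all tested genes were called, 16.9% higher and 7.05% lower. Here 6 of the 9 genes did not overlap, all with higher levels in treated HCC, against 48.8% of all tested genes, 26.6% higher and 22.2% lower. The median was 0.35 against 0.022 for all tested genes. The 3 comparisons share livers and are therefore not independent of each other.

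**Figure D1:**
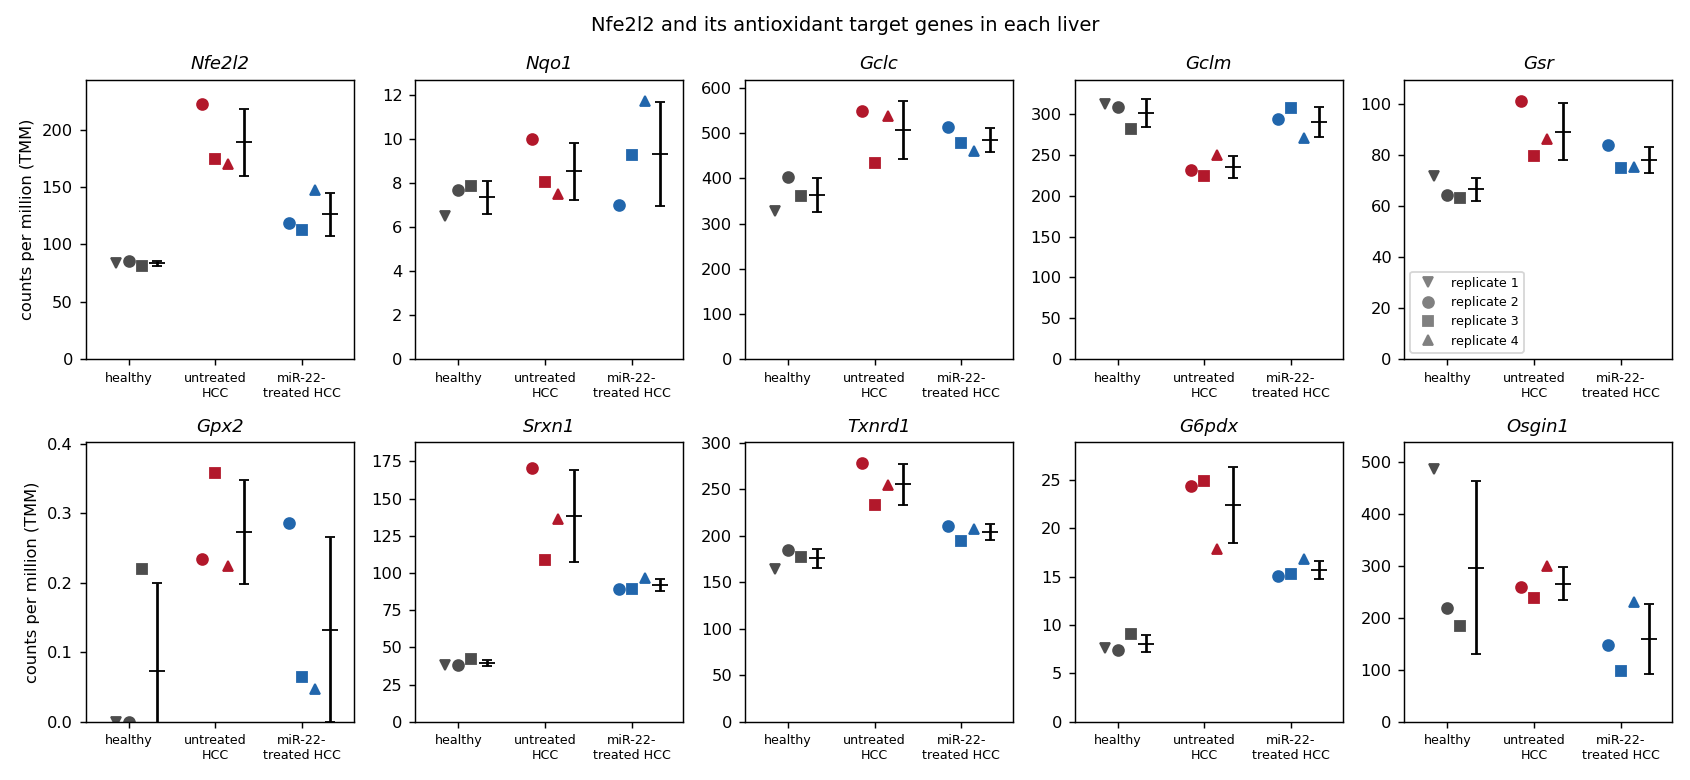
Level of each of the 10 genes in each liver, in TMM-scaled CPM (vertical axes start at 0 and differ between panels), with marker shapes for replicate numbers and bars for the mean ± SD of 3 livers. Nfe2l2, Srxn1 and G6pdx are lowest in healthy livers, highest in untreated HCC and between them in miR-22-treated HCC, Gclm has its lowest levels in untreated HCC, and Gpx2 lies below 0.4 CPM in every liver.

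Nfe2l2 (ENSMUSG00000015839.6, GRCm39 chromosome 2, 75504739 to 75534985, minus strand) stood at 83.5, 85.7 and 81.5 CPM in healthy livers. In untreated HCC it stood at 223, 175 and 169.9 CPM, and in miR-22-treated HCC at 118, 113 and 147 CPM. No liver of one group reached into the range of another: healthy livers were lowest and nearly equal, untreated HCC was highest, and the treated livers lay between. Against healthy livers it rose 2.26-fold in untreated HCC (log2 fold change 1.18, SE 0.127, edgeR's adjusted p = 6.26e-06), and this call held in all 16 alternative analyses that keep the fold threshold, with log2 fold changes from 1.04 to 1.60. In the HCC groups, treated against untreated, the log2 fold change was −0.58 (SE 0.125, edgeR's adjusted p = 0.00568), which is a 1.499-fold lower level, just under the fold threshold of 1.5. It passed both thresholds in 12 of these 16 alternatives, so whether Nfe2l2 is called in this comparison depends on the setting. Treated livers remained above healthy ones, by a log2 fold change of 0.59 (SE 0.126, edgeR's adjusted p = 0.00285), a 1.509-fold difference just over the threshold. The call was lost in 6 of 16 alternatives, among them DESeq2 and its size factors and the fits without healthy replicate 1, healthy replicate 3 or treated replicate 4, which gave 0.58, 0.56 and 0.47. The exons of Nfe2l2 share 278 bases with E030042O20Rik on the other strand, which averaged 0.938 CPM in healthy livers and 0.907 CPM in untreated HCC. Reads were not kept apart by strand.

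Glutathione, the main soluble thiol of hepatocytes, is made in a first, rate-limiting step by glutamate-cysteine ligase, an enzyme of a catalytic subunit (Gclc) and a modifier subunit (Gclm) that makes it more efficient. The log2 fold changes of the subunits in untreated HCC had opposite signs, each under the fold threshold. Gclc (ENSMUSG00000032350.9, chromosome 9, 77661797 to 77701770) had 327, 402 and 361 CPM in healthy livers, 549, 434 and 539 CPM in untreated HCC, and 514, 478 and 461 CPM in treated HCC. All 6 HCC livers lay above all healthy livers, while the HCC groups overlapped. Its log2 fold change was 0.48 in untreated HCC against healthy livers (SE 0.122, edgeR's adjusted p = 0.00456). It was 0.42 in treated HCC against healthy livers (SE 0.122, edgeR's adjusted p = 0.0181), and −0.07 between the HCC groups (95% confidence interval −0.33 to 0.20, edgeR's adjusted p = 0.738). With total-count scaling the first value was 0.90 and the second 0.60, and both were called. The third was then −0.30, under the fold threshold.

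Gclm (ENSMUSG00000028124.15, chromosome 3, 122039126 to 122065061) had 313, 309 and 282 CPM in healthy livers, 232, 224 and 250.02 CPM in untreated HCC, and 294, 307 and 271 CPM in treated HCC. Untreated HCC was lowest with no overlap, and treated and healthy livers overlapped. The log2 fold change was −0.36 against healthy livers (SE 0.0964, edgeR's adjusted p = 0.00709) and 0.30 with miR-22 (SE 0.0964, edgeR's adjusted p = 0.0375), and treated and healthy livers differed by −0.05 (95% confidence interval −0.26 to 0.16). With total-count scaling these values were 0.066, 0.066 and 0.13, none with an adjusted p under 0.05, so the direction against healthy livers and the size of the difference with miR-22 depend on the scaling. Gclm exons share 869 and 130 bases with lncRNAs on the other strand, of which Gm17494 averaged 1.34 CPM in healthy livers and 1.22 CPM in untreated HCC, and 492 bases with the pseudogene Gm6061 on the same strand.

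The ratio of Gclc to Gclm reads within a liver does not depend on how libraries are scaled. It was chosen after the values of both genes had been seen, and because reads were not divided by transcript length it is not a ratio of molecules. In healthy livers it was 1.05, 1.30 and 1.28, in untreated HCC 2.37, 1.94 and 2.15, and in miR-22-treated HCC 1.75, 1.56 and 1.70. The groups did not overlap, with healthy livers lowest and untreated HCC highest. The geometric mean was 1.78-fold higher in untreated HCC than in healthy livers, 1.29-fold lower in treated than in untreated HCC, and 1.39-fold higher in treated HCC than in healthy livers. An exact two-sided permutation test gave p = 0.1 for each, the smallest p that 3 livers against 3 allow. Groups without overlap always give this p, so the test adds nothing to the lack of overlap.

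**Figure D2:**
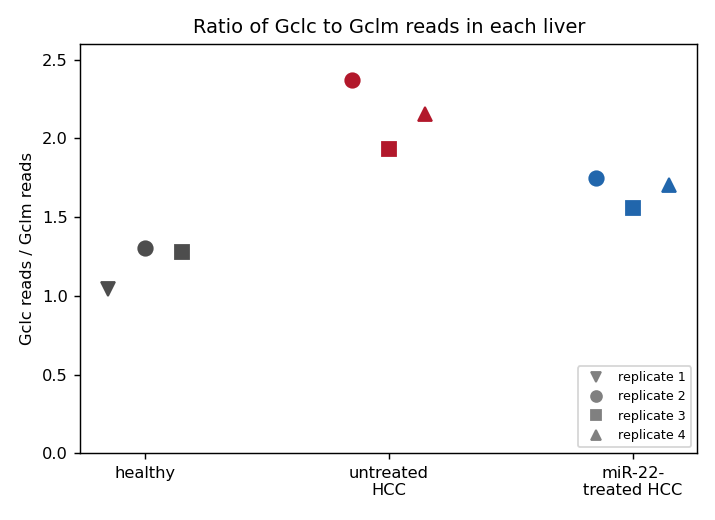
Reads of Gclc divided by reads of Gclm (vertical axis, from 0) in each of the 9 livers by group, with marker shapes for replicate numbers. Healthy livers span 1.05 to 1.30, untreated HCC spans 1.94 to 2.37 and miR-22-treated HCC spans 1.56 to 1.75.

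Gsr (ENSMUSG00000031584.16, chromosome 8, 34142551 to 34188192) encodes glutathione reductase, which returns oxidized glutathione to its reduced form with NADPH. It had 71.8, 64.5 and 63.3 CPM in healthy livers, 101, 79.5 and 86.5 CPM in untreated HCC, and 83.8, 74.9 and 75.3 CPM in treated HCC. Both HCC groups lay above healthy livers without overlap and overlapped each other. The log2 fold change was 0.42 in untreated HCC (SE 0.102, edgeR's adjusted p = 0.00346), a 1.34-fold difference, and −0.19 with miR-22 (95% confidence interval −0.41 to 0.03, edgeR's adjusted p = 0.197). With total-count scaling these values were 0.84, which was called, and −0.43, which was not. Gsr exons share 144 bases with the snoRNA Gm24727 on the same strand. Gpx2 (ENSMUSG00000042808.8, chromosome 12, 76839107 to 76842326) encodes a glutathione peroxidase best known from the gut epithelium. It had 0, 0 and 4 counts in healthy livers, 5, 8 and 6 in untreated HCC, and 5, 1 and 1 in treated HCC. In CPM every liver of untreated HCC was above every healthy liver, but only by 0.224 against 0.220 CPM, and treated and healthy livers overlapped. With 8 counts at most, Gpx2 was below the filter on low counts and was not tested, and no fold change is given.

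Srxn1 (ENSMUSG00000032802.8, chromosome 2, 151947436 to 151957687) encodes sulfiredoxin, which repairs peroxiredoxins that hydrogen peroxide has overoxidized. It had the largest fold change of the 9 genes in untreated HCC, and it alone was called in all 3 comparisons. Its levels were 38.4, 38.1 and 42.0 CPM in healthy livers, 170.4, 109 and 136 CPM in untreated HCC, and 89.5, 89.3 and 96.6 CPM in treated HCC. The groups did not overlap, and untreated replicate 2 was the highest of the 9 livers, as it was for Nfe2l2, Gclc, Gsr and Txnrd1. Srxn1 rose 3.50-fold in untreated HCC (log2 fold change 1.81, SE 0.138, edgeR's adjusted p = 4.12e-07), a call that held in all 16 alternatives from 1.63 to 2.23. With miR-22 it fell 1.51-fold (log2 fold change −0.59, SE 0.133, edgeR's adjusted p = 0.00722). The call was lost in 4 of 16 alternatives, 3 of them fits without a single liver: the log2 fold change was −0.42 without untreated replicate 2, −0.58 without treated replicate 2 and −0.57 without treated replicate 3, each under the fold threshold. Treated livers stayed 2.32-fold above healthy ones (log2 fold change 1.22, SE 0.137, edgeR's adjusted p = 2.91e-05). Srxn1 exons share 242 bases with the lncRNA 9230118N01Rik on the other strand.

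Txnrd1 (ENSMUSG00000020250.10, chromosome 10, 82669785 to 82733546) encodes cytosolic thioredoxin reductase, the selenoenzyme that reduces thioredoxin with NADPH. It had 165, 185 and 178 CPM in healthy livers, 278, 234 and 255 CPM in untreated HCC, and 211, 195 and 207 CPM in treated HCC. The order of groups was that of Nfe2l2 and Srxn1, again with no overlap, over a narrower range. In untreated HCC it was 1.452-fold above healthy livers (log2 fold change 0.54, SE 0.0966, edgeR's adjusted p = 0.000414), short of the fold threshold, and without untreated replicate 3 or with total-count scaling the log2 fold change was 0.60 or 0.96 and past it. The log2 fold change with miR-22 was −0.32 (SE 0.0963, edgeR's adjusted p = 0.0293), or −0.56 and still under the fold threshold with total-count scaling, and between treated and healthy livers it was 0.22 (SE 0.0966, edgeR's adjusted p = 0.100).

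G6pdx (ENSMUSG00000031400.10, chromosome X, 73449857 to 73472819, minus strand) encodes glucose-6-phosphate dehydrogenase, the entry enzyme of the pentose phosphate pathway and a main source of the NADPH that Gsr and Txnrd1 consume. Its levels were 7.67, 7.43 and 9.12 CPM in healthy livers, 24.4, 24.9 and 17.9 CPM in untreated HCC, and 15.1, 15.2 and 16.8 CPM in treated HCC. The groups did not overlap, though untreated replicate 4 came close to the treated livers. G6pdx rose 2.76-fold in untreated HCC (log2 fold change 1.47, SE 0.148, edgeR's adjusted p = 3.8e-06) and was called in all 16 alternatives, from 1.39 to 1.90. In treated HCC it was 1.94-fold above healthy livers (log2 fold change 0.96, SE 0.150, edgeR's adjusted p = 0.000386). With miR-22 the log2 fold change was −0.51 (SE 0.141, edgeR's adjusted p = 0.0208), under the fold threshold, and past it without untreated replicate 4 (−0.65) and with total-count scaling (−0.75). G6pdx exons share 526 bases with Ikbkg on the other strand, whose levels were 79.6 to 82.0 CPM in healthy livers, 96.8 to 110.2 CPM in untreated HCC and 104 to 112 CPM in treated HCC. Reads in the shared stretch cannot be told apart by strand, and the close copy G6pd2 had 0 counts in every liver.

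Nqo1 (ENSMUSG00000003849.8, chromosome 8, 108113835 to 108129934, minus strand) encodes the quinone reductase that is widely used as the readout of NRF2. It had 6.48, 7.69 and 7.86 CPM in healthy livers, 9.98, 8.06 and 7.51 CPM in untreated HCC, and 6.98, 9.25 and 11.7 CPM in treated HCC. All 3 groups overlapped. The log2 fold change was 0.21 in untreated HCC against healthy livers (95% confidence interval −0.22 to 0.64, edgeR's adjusted p = 0.383). It was 0.13 with miR-22 (−0.29 to 0.56, edgeR's adjusted p = 0.661) and 0.35 between treated and healthy livers (−0.08 to 0.78, edgeR's adjusted p = 0.195). With total-count scaling the first value was 0.63 and was called (edgeR's adjusted p = 0.0172), the one alternative of 16 in which it was, and the second was −0.098. The intervals above, which hold for TMM scaling, leave out the 2.26-fold rise of Nfe2l2 and the 3.50-fold rise of Srxn1, but those for untreated and for treated HCC against healthy livers do not leave out a fold change of 1.5.

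Osgin1 (ENSMUSG00000074063.10, chromosome 8, 120152470 to 120173000) encodes an oxidative stress-induced growth inhibitor. It had 488, 219 and 184 CPM in healthy livers, 259.9, 238 and 299.8 CPM in untreated HCC, and 148, 97.4 and 231 CPM in treated HCC. Relative to its mean it varied most of the 9 genes among healthy and among treated livers, though not among untreated ones, with healthy replicate 1 far above the other healthy livers. Treated and untreated livers did not overlap, by a margin of 231 against 238 CPM. None of its log2 fold changes was called: −0.16 in untreated HCC against healthy livers (SE 0.339, edgeR's adjusted p = 0.714), −0.74 with miR-22 (SE 0.341, edgeR's adjusted p = 0.137) and −0.90 in treated HCC against healthy livers (SE 0.342, edgeR's adjusted p = 0.0562). Without healthy replicate 1 the first value was 0.39. The second was called in 5 of 16 alternatives, such as −1.12 without treated replicate 4 (edgeR's adjusted p = 0.0307) and −0.75 without healthy replicate 1 (edgeR's adjusted p = 0.0462). The third was called in 5 of 16 as well, among them the fits without healthy replicate 2 (−1.09), healthy replicate 3 (−1.17) or treated replicate 4 (−1.28), and it was −0.36 without healthy replicate 1, so these calls depend on the setting.

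**Figure D3:**
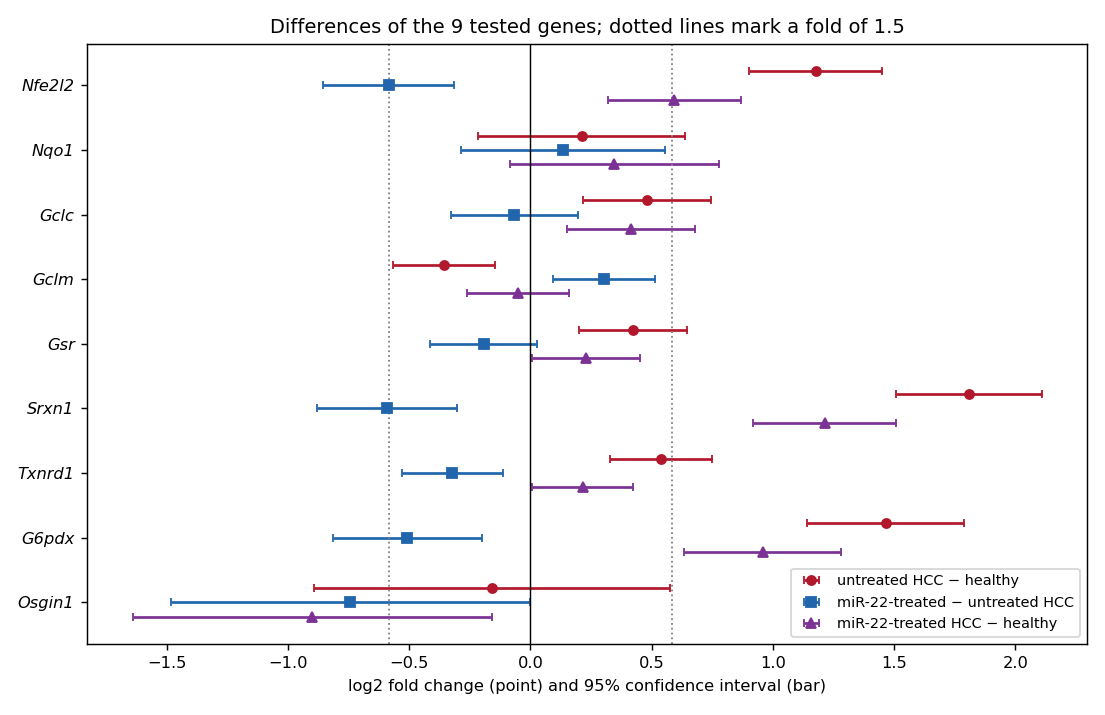
Log2 fold changes (horizontal axis) of the 9 tested genes in the 3 comparisons, with points for the estimate, bars for its 95% confidence interval and dotted lines at a fold change of 1.5. Srxn1, G6pdx and Nfe2l2 lie farthest to the right in untreated HCC against healthy livers (1.81, 1.47 and 1.18), Gclm is the one gene whose interval lies below 0 in that comparison, and the intervals of Nqo1 include 0 throughout.

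miR-22 acts through its seed, bases 2 to 8, which pair with complementary letters in the 3′ UTR of a transcript. The mature sequence of miR-22-3p is given by RefSeq (GRCm38.p6, chr11:75463772-75463793, plus strand) and is shown with the seed in capitals so that the matches can be read against it. The complement of the seed, GGCAGCT, occurs in the canonical 3′ UTR of 2 of the 10 genes, against 16.9% of 13541 tested genes with a 3′ UTR. Gclm holds 1 match in 5015 bases, at position 4610, and Srxn1 holds 3 in 6575 bases, at positions 400, 2622 and 6135. Nfe2l2, with a 3′ UTR of 1566 bases, holds 0. In the matched stretches, printed 5′ to 3′, capitals mark the seed match.
miR-22-3p: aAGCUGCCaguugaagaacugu
Gclm, position 4610: aaaataaggtGGCAGCTtgtattagag
Srxn1, position 400: ctctggaaccGGCAGCTaacacagcac
Srxn1, position 2622: tcttaagaaaGGCAGCTgggagcaaag
Srxn1, position 6135: ctggctccacGGCAGCTgtcctaccac
Of these genes, Srxn1 was lower with miR-22 (log2 fold change −0.59) and Gclm was higher (0.30). A match of letters is not a tested site.

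Genes that restrain or partner NRF2 were read from a list of 15, all of which were tested. In untreated HCC 2 of them rose and 2 fell, where 22.7% of all tested genes were called higher and 18.1% lower. The median log2 fold change of the list was −0.12. With total-count scaling 4 were higher and 1 lower, and the median was 0.31. Bach1, the repressor that competes with NRF2, had 67.1, 73.6 and 66.3 CPM in healthy livers, 38.2, 39.4 and 34.7 CPM in untreated HCC, and 66.0, 56.2 and 54.8 CPM in treated HCC. Untreated HCC was lowest, without overlap, and treated and healthy livers came near each other. Bach1 fell in untreated HCC (log2 fold change −0.88, SE 0.0957, edgeR's adjusted p = 6.81e-06) and rose with miR-22 (0.66, SE 0.0956, edgeR's adjusted p = 0.000759). It was the one gene of the list called between the HCC groups, where 13.8% of all tested genes were called. With total-count scaling the log2 fold changes of Bach1 were −0.46 and 0.42 and neither was called, while Mafk was called lower with miR-22 (−0.63). Mafg, a small MAF partner, had 164, 151 and 140.4 CPM in healthy livers, 60.4, 67.6 and 72.6 CPM in untreated HCC, and 99.2, 99.3 and 92.4 CPM in treated HCC. It fell in untreated HCC (log2 fold change −1.18, SE 0.0958, edgeR's adjusted p = 6.74e-07), and its log2 fold change with miR-22 was 0.54 (SE 0.0952, edgeR's adjusted p = 0.00204), under the fold threshold. The other small MAF genes rose in untreated HCC, Mafk by 1.49 (SE 0.186, edgeR's adjusted p = 2.18e-05) and Maff by 0.85 (SE 0.288, edgeR's adjusted p = 0.0234) on the log2 scale.

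Keap1, the gene of the NRF2 inhibitor, had 61.5, 57.5 and 58.5 CPM in healthy livers, 51.5, 50.9 and 50.2 CPM in untreated HCC, and 47.6, 45.8 and 45.7 CPM in treated HCC. Its groups did not overlap, yet the differences were small, with a log2 fold change of −0.22 in untreated HCC (SE 0.0740, edgeR's adjusted p = 0.0240) and −0.13 with miR-22 (SE 0.0743, edgeR's adjusted p = 0.218). The direction against healthy livers depends on the scaling: scaled by total counts, every untreated liver lay above every healthy liver. Gsk3b, a kinase that marks NRF2 for degradation apart from KEAP1, had a log2 fold change of 0.35 in untreated HCC (SE 0.0905, edgeR's adjusted p = 0.00521), and Bach2, a relative of Bach1, had 0.61 with miR-22 (SE 0.245, edgeR's adjusted p = 0.0909).

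**Figure D4:**
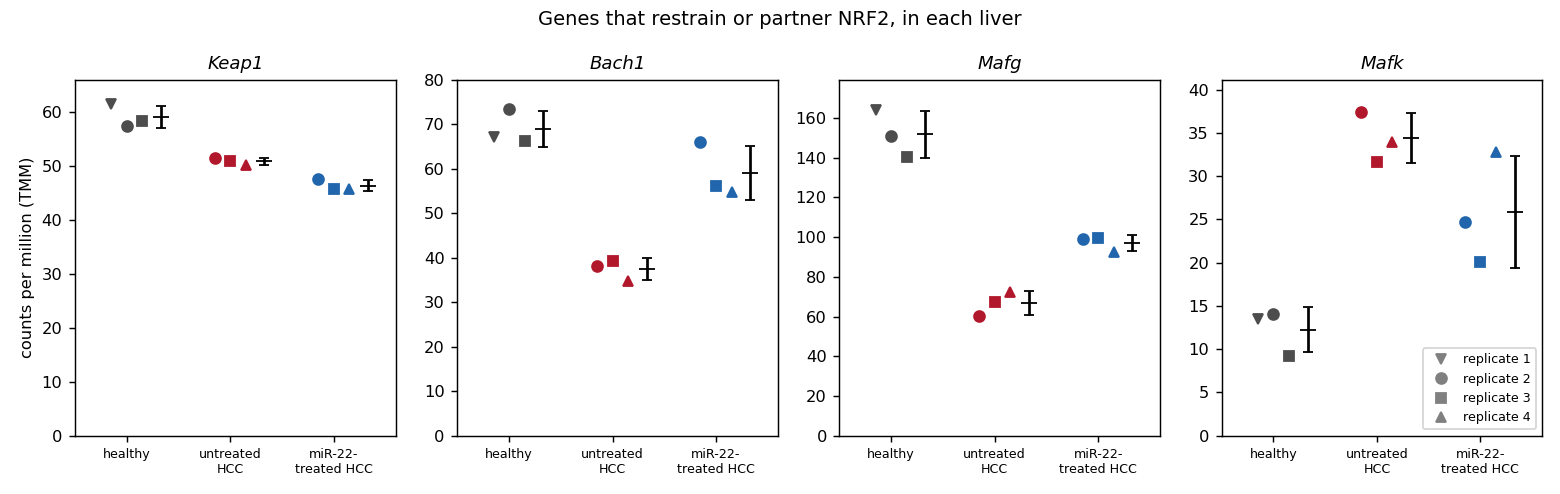
Level of Keap1, Bach1, Mafg and Mafk in each liver, in TMM-scaled CPM (vertical axes from 0, different scales), with marker shapes for replicate numbers and bars for the mean ± SD of 3 livers. Bach1 and Mafg are lowest in untreated HCC and higher in miR-22-treated HCC, Mafk is lowest in healthy livers, and Keap1 spans 45.7 to 61.5 CPM.

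Among 16 other genes of glutathione synthesis, turnover and use, 15 were tested, of which 8 rose and 3 fell in untreated HCC. Of all tested genes 22.7% were called higher and 18.1% lower, and the median log2 fold change of the list was 1.10. With total-count scaling 9 of the 15 were higher and 1 lower. Slc7a11, the cystine importer that supplies cysteine for glutathione, had 0 counts in every healthy liver against 3.98, 4.88 and 3.44 CPM in untreated HCC and 4.12, 2.49 and 4.28 CPM in treated HCC. Against a floor of 3 counts per library this was at least 22.7-fold higher in untreated and 20.1-fold higher in treated HCC. Gpx4, which reduces lipid peroxides in membranes, had 152 to 170.05 CPM in healthy livers and 376 to 440.1 CPM in untreated HCC and rose (log2 fold change 1.32, SE 0.142, edgeR's adjusted p = 6.32e-06). Gpx1, the abundant cytosolic peroxidase, went the other way, from 1708 to 1772 CPM in healthy livers to 682 to 963 CPM in untreated HCC (log2 fold change −1.09, SE 0.139, edgeR's adjusted p = 2.51e-05), and rose with miR-22 to 1223 to 1446 CPM (0.72, SE 0.138, edgeR's adjusted p = 0.00306). Gpx3, the secreted peroxidase, rose in untreated HCC (2.50, SE 0.204, edgeR's adjusted p = 7e-07). With miR-22 8.32% of all tested genes were called higher and 5.47% lower. Of the 15, 3 rose and 0 fell: Gpx1, the glutathione-degrading enzyme Chac1 (1.48, SE 0.280, edgeR's adjusted p = 0.00292) and Oplah (0.59, SE 0.0976, edgeR's adjusted p = 0.00142), which recovers glutamate from 5-oxoproline. With total-count scaling Chac1 was the one called higher with miR-22, and Ggct, Gpx3 and Gpx7 were called lower. With DESeq2 size factors 2 were higher and 0 lower. Oplah had fallen in untreated HCC (−0.95, SE 0.0980, edgeR's adjusted p = 4.49e-06), as had Chac2 (−0.98, SE 0.126, edgeR's adjusted p = 2.75e-05).

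Other genes of the thioredoxin and peroxiredoxin system, 15 tested of 15, had 9 lower and 1 higher in untreated HCC. Of all tested genes 18.1% were called lower and 22.7% higher, and the median log2 fold change of the list was −0.62. With total-count scaling 3 of the 15 were lower and 2 higher and the median was −0.20. Msrb1, a methionine sulfoxide reductase, had 260.5 to 268 CPM in healthy livers, 112 to 135 CPM in untreated HCC and 197 to 229.8 CPM in treated HCC. It fell in untreated HCC (log2 fold change −1.09, SE 0.102, edgeR's adjusted p = 1.96e-06) and rose with miR-22 (0.75, SE 0.101, edgeR's adjusted p = 0.000484). Mitochondrial thioredoxin, Txn2, fell by 0.87 (SE 0.101, edgeR's adjusted p = 1.25e-05) and its reductase Txnrd2 fell by 0.84 (SE 0.0965, edgeR's adjusted p = 1.03e-05) on the log2 scale, and so did Sesn1 (−0.89, SE 0.124, edgeR's adjusted p = 5.6e-05). Scaled by total counts, Txn2, Txnrd2 and Sesn1 stayed lower but lay under the fold threshold. Sesn2, a stress-induced sestrin, was the one that rose (1.18, SE 0.224, edgeR's adjusted p = 0.000622). With miR-22 2 of the 15 rose and 0 fell, against 8.32% higher and 5.47% lower of all tested genes. The 2 were Msrb1 and Txnip, the inhibitor of thioredoxin, of which Txnip alone was called with total-count scaling. Txnip had 148, 158 and 89.5 CPM in healthy livers, 55.4, 55.3 and 55.4 CPM in untreated HCC, and 113, 162 and 276 CPM in treated HCC (log2 fold change with miR-22 1.73, SE 0.275, edgeR's adjusted p = 0.00111). Untreated livers were nearly equal for Txnip, while treated livers spread widely. The peroxiredoxins Prdx4 and Prdx5 had log2 fold changes with miR-22 of 0.38 (SE 0.0790, edgeR's adjusted p = 0.00519) and 0.35 (SE 0.0994, edgeR's adjusted p = 0.0222), under the fold threshold.

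Of 13 other genes of the pentose phosphate pathway and of enzymes that make NADPH, 4 rose and 2 fell in untreated HCC. Calls over all tested genes were 22.7% higher and 18.1% lower, and the median log2 fold change of the list was 0.43. With total-count scaling 8 of the 13 were higher and 2 lower, and the median was 0.85. Pgd, the next NADPH-producing enzyme after G6pdx in the pentose phosphate pathway, had 55.2 to 58.2 CPM in healthy livers, 115 to 139 CPM in untreated HCC and 101 to 122 CPM in treated HCC. Pgd rose in untreated HCC (log2 fold change 1.20, SE 0.103, edgeR's adjusted p = 1.02e-06), as did Rpia (1.02, SE 0.170, edgeR's adjusted p = 0.000222) and Tkt (0.81, SE 0.103, edgeR's adjusted p = 2.57e-05) of the same pathway, which do not themselves make NADPH. Mthfd2, the mitochondrial folate enzyme, rose from at most 1.15 CPM in healthy livers to at least 12.3 CPM (log2 fold change 4.20, SE 0.362, edgeR's adjusted p = 1.09e-06). The cytosolic folate enzyme Mthfd1 and isocitrate dehydrogenase Idh1 fell, by 1.51 (SE 0.145, edgeR's adjusted p = 2.52e-06) and 1.01 (SE 0.129, edgeR's adjusted p = 2.63e-05) on the log2 scale. These were also the 2 genes that rose with miR-22, where 0 fell: Mthfd1 by 0.69 (SE 0.143, edgeR's adjusted p = 0.00478) and Idh1 by 0.64 (SE 0.128, edgeR's adjusted p = 0.00389). Calls over all tested genes with miR-22 were 8.32% higher and 5.47% lower. With total-count scaling 0 of the 13 were higher with miR-22 and 1 lower, and with DESeq2 size factors 2 were higher and 1 lower.

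A further 32 reported NRF2 target genes of detoxification, export, heme and iron gave 31 tested genes, of which 12 rose and 7 fell in untreated HCC. Over all tested genes 22.7% were called higher and 18.1% lower, and the median log2 fold change of the list was 0.048. With total-count scaling 14 of the 31 were higher and 3 lower, and the median was 0.47. The glutathione transferases split. Gstm3 had 18.98, 29.1 and 28.1 CPM in healthy livers, 515, 290.1 and 344 CPM in untreated HCC, and 224, 242 and 294 CPM in treated HCC, and rose in untreated HCC (log2 fold change 3.91, SE 0.232, edgeR's adjusted p = 6.39e-08). Gstp1, a transferase often raised in liver tumors of rodents, had 54.9 to 65.3, 309.6 to 388 and 197 to 295 CPM and rose as well (2.53, SE 0.163, edgeR's adjusted p = 1.17e-07). Gsta3, the abundant alpha-class transferase of the liver, fell from 1433 to 1752 CPM to 521 to 606 CPM (−1.56, SE 0.125, edgeR's adjusted p = 6.25e-07) and rose with miR-22 to 906 to 1022 CPM (0.82, SE 0.123, edgeR's adjusted p = 0.000885). These families hold similar sequences among which reads can be split, so their values are uncertain. Ptgr1, which reduces reactive aldehydes and leukotriene products, rose in untreated HCC from 2.45 to 5.49 CPM to 22.3 to 30.3 CPM (2.64, SE 0.232, edgeR's adjusted p = 1.26e-06).

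Hmox1, the heme oxygenase that both NRF2 and BACH1 control, had 36.0, 25.9 and 29.8 CPM in healthy livers, 36.4, 28.3 and 35.6 CPM in untreated HCC, and 27.1, 23.3 and 34.7 CPM in treated HCC. The groups overlapped, with log2 fold changes of 0.13 in untreated HCC (SE 0.159, edgeR's adjusted p = 0.507) and −0.23 with miR-22 (SE 0.159, edgeR's adjusted p = 0.321). With miR-22 8.32% of all tested genes were called higher and 5.47% lower. Of the 31, 5 rose and 0 fell: Gsta3, Ugt1a6a (0.82, SE 0.159, edgeR's adjusted p = 0.00336), Mgst1 (0.71, SE 0.152, edgeR's adjusted p = 0.00562), Cat (0.71, SE 0.164, edgeR's adjusted p = 0.00832) and Abcc2 (0.60, SE 0.128, edgeR's adjusted p = 0.00569). Each of these 5 had fallen in untreated HCC, where hepatocyte markers also fell, and 5 of 10 hepatocyte markers rose with miR-22 (3 of 10 with total-count scaling). With total-count scaling 1 of the 31, Ugt1a6a, was higher with miR-22 and 6 were lower, and with DESeq2 size factors 4 were higher and 1 lower.

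Of 11 genes that make or remove superoxide, 10 were tested, and 6 rose and 2 fell in untreated HCC (median log2 fold change 0.80). Calls over all tested genes were 22.7% higher and 18.1% lower there, and 13.8% in either direction with miR-22. The cytosolic and mitochondrial dismutases fell, Sod1 from 611 to 697 CPM to 248 to 314 CPM (−1.18, SE 0.121, edgeR's adjusted p = 4.19e-06) and Sod2 from 224 to 243 CPM to 93.9 to 114 CPM (−1.19, SE 0.103, edgeR's adjusted p = 1.1e-06). Their log2 fold changes with miR-22 were 0.58 and 0.55, both under the fold threshold. The secreted dismutase Sod3 rose in untreated HCC (1.88, SE 0.134, edgeR's adjusted p = 2.42e-07) and fell with miR-22 (−0.78, SE 0.128, edgeR's adjusted p = 0.00126), the one gene of the list called between the HCC groups. Nox4, an NADPH oxidase, had a log2 fold change of 0.92 with miR-22 (SE 0.316, edgeR's adjusted p = 0.0520). Cybb, the catalytic subunit of the phagocyte NADPH oxidase, rose from 17.3 to 22.6 CPM to 53.8 to 57.1 CPM (1.52, SE 0.107, edgeR's adjusted p = 2.25e-07) and stood at 52.7 to 57.6 CPM in treated HCC. Cybb is a myeloid gene, and the summed neutrophil markers were higher in both HCC groups than in healthy livers. The macrophage sums of untreated HCC (from 610.1 CPM) and healthy livers (up to 613 CPM) overlapped, with 3 of 11 markers higher and 1 lower. The part of these cells was not tested.

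**Figure D5:**
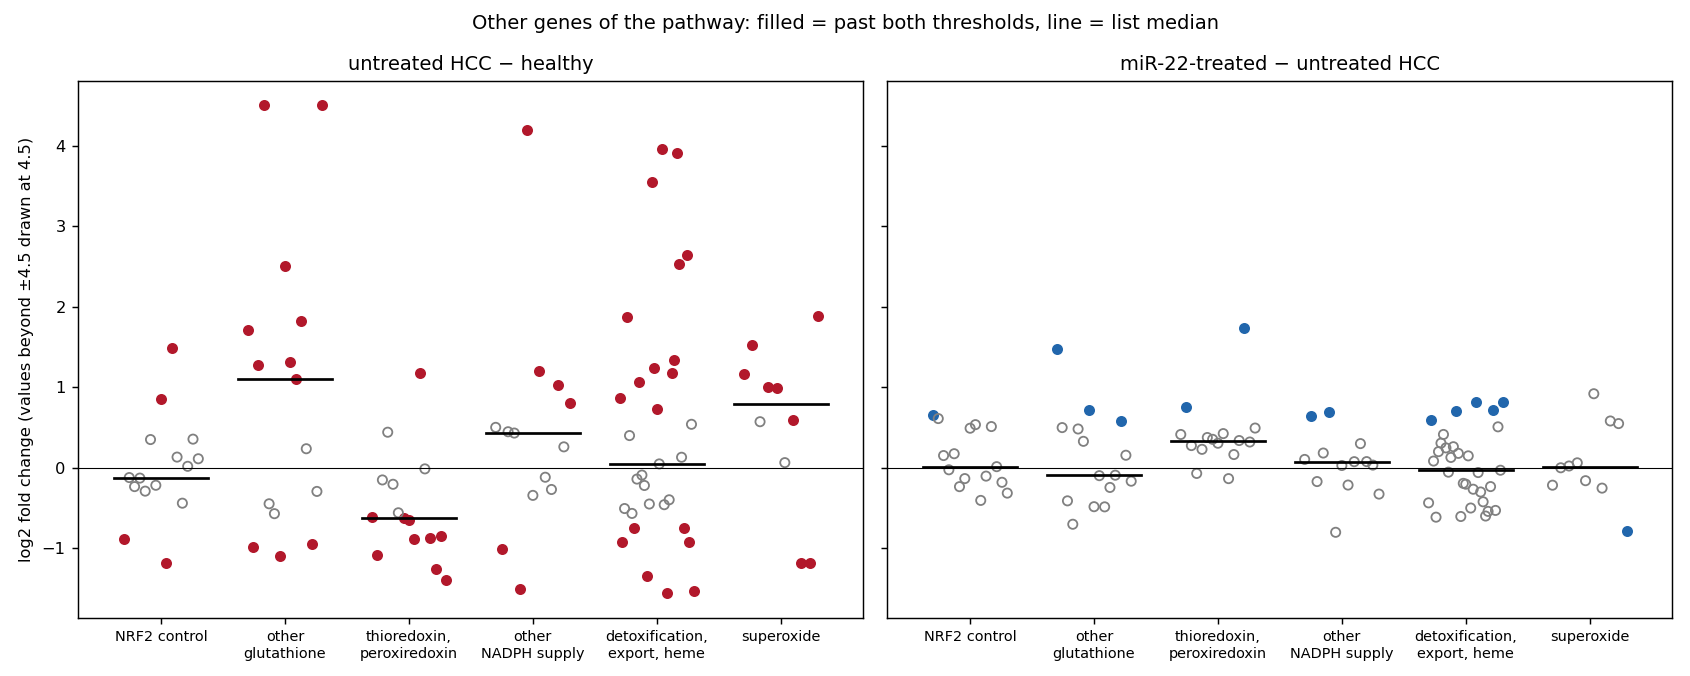
Log2 fold changes (vertical axis) of the tested genes of 6 lists of other pathway genes, in untreated HCC against healthy livers (left) and miR-22-treated against untreated HCC (right); filled points passed both thresholds, open points did not, lines are list medians, and values beyond the limit named on the axis are drawn at it. On the left 8 of 15 other glutathione genes rose and 9 of 15 thioredoxin and peroxiredoxin genes fell. Of all tested genes 22.7% rose and 18.1% fell there, and on the right few genes of the lists passed.

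Between miR-22-treated HCC and healthy livers, 16.9% of all tested genes were called higher and 7.05% lower. In the lists the calls were 2 higher and 1 lower of 15 control genes, 7 and 0 of 15 other glutathione genes, 1 and 1 of 15 thioredoxin and peroxiredoxin genes, 5 and 1 of 13 pentose phosphate and NADPH genes, 11 and 3 of 31 detoxification genes, and 6 and 2 of 10 superoxide genes. With total-count scaling they were 3 and 0, 8 and 0, 1 and 0, 6 and 1, 14 and 0, and 7 and 0, in the same order. Bach1 was not among them (log2 fold change −0.23, SE 0.0948, edgeR's adjusted p = 0.0816), while Mafg remained lower (−0.65, SE 0.0949, edgeR's adjusted p = 0.000235) and Mafk higher (1.09, SE 0.187, edgeR's adjusted p = 0.000746).

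The injected oncogenes were checked through their mouse genes, to which reads of the plasmids can map. Akt1 stood at 103 to 109 CPM in healthy livers, 1170.1 to 1673 CPM in untreated HCC and 671 to 1104 CPM in treated HCC, and Nras at 26.8 to 29.6, 63.3 to 77.3 and 53.3 to 55.3 CPM. Akt1 rose in untreated HCC (log2 fold change 3.82, SE 0.202, edgeR's adjusted p = 2.9e-08) and fell with miR-22 (−0.79, SE 0.181, edgeR's adjusted p = 0.00786). Its groups did not overlap and stood in the order of Nfe2l2, Srxn1, Txnrd1 and G6pdx, and how much of their differences goes with the amount of oncogene or tumor was not tested.

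Genes whose pattern over the 9 livers was nearest to that of Nfe2l2 were sought among the 15708 tested genes outside the 10 described here, which were not ranked against each other, by the root mean square difference between log2 CPM values centred on each gene's own mean. The 5 nearest were Gars (0.0893), Grk5 (0.0916), Endod1 (0.0931), Map7d1 (0.0954) and Sptlc2 (0.0956). The nearest, Gars, which encodes glycyl-tRNA synthetase, averaged 50.8 CPM in healthy livers, 109.8 CPM in untreated HCC and 79.1 CPM in treated HCC. For Nqo1 they were Wfdc17 (0.0817), Gm8730 (0.0890), Vps25 (0.104), Gm10076 (0.105) and Pdcd5 (0.123), with Wfdc17 at 6.12, 7.01 and 8.06 CPM. None of the genes on the lists of other pathway genes was among the 5 nearest to either.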

How the data were processed

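Whole-liver RNA was sequenced from 9 livers, 3 per group. The authors prepared non-directional libraries, estimated transcript abundance with Salmon, summed it per gene with tximport and deposited whole-number counts per gene, unfiltered and not normalized. The study's methods name GRCm39 with a GENCODE release, FastQC 0.11.7 and DESeq2 1.18. A deposited table of counts divided by size factors was not used. Salmon shares reads between similar transcripts by estimation, which can move counts of gene families.

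Differences came from edgeR 4.0.16 under R 4.3.3, with all 9 libraries in a single fit and no covariates (filterByExpr, TMM, two-sided quasi-likelihood F test), with Benjamini-Hochberg adjustment over 15717 genes. Both thresholds, 0.05 on the adjusted p and 1.5 on the fold, are those of the study's methods. The SE is that of the log2 fold change. The common dispersion was 0.0206, and the chi-square per degree of freedom between livers of the same group was 6.15 to 30.1, above sampling noise. Alternatives were DESeq2 1.42.0, its size factors, total counts, other filters on low counts, a replicate block, only the 2 groups compared, each liver left out and no fold threshold. The scripts were tested on simulated data. Positions, exon overlaps, promoters and 3′ UTRs came from the GENCODE annotation of GRCm39, read with Python 3.11.15. Of the 55401 deposited gene IDs 51731 are in that annotation, 35 of them with the same version (0 of the 10 genes), so the gene models behind the counts may differ from those printed here. IDs were matched without versions. Figures were drawn with matplotlib 3.10.9.

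The 10 genes, the lists and the cell type markers were chosen with earlier results of these data known. Named from the lists are the 4 genes with the smallest p in untreated HCC against healthy livers and the 4 with the smallest p in miR-22-treated against untreated HCC. Keap1, Bach1, Mafg, Hmox1, Slc7a11, Akt1, Nras and the 5 genes nearest in pattern to Nfe2l2 and Nqo1 were named whatever their p. Maff, Rpia, Sesn2, Cat, Ggct, Gpx7 and genes that overlap or resemble the 10 were added to complete small counts after their values were seen. Counting intervals and floors cover counting error only.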

Additional observations from a re-analysis of the deposited data

How the results depend on the processing

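The precision of 3 livers per group limits calls near the fold threshold, and Gpx2 was too shallow to test. Of 459 alternative values of single genes, 403 kept their direction and side of the threshold, 10 lost and 39 gained a call (those with no fold threshold included), and 7 changed sign. Of 306 counts over the lists, 270 stayed within 1.5 times.

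Genes called between treated and untreated HCC numbered 2167, with 2999 by total counts and 3777 with no fold threshold. Leaving out each liver gave 1433 (without treated replicate 3) to 2660. Against healthy livers treated HCC had 3772 calls, and 5732 with no fold threshold. Over all 15717 tested genes, 6417 were called in untreated HCC, 7478 with total counts and 8838 with no fold threshold. Among the 9 genes the 3 called there became 7 with total counts or no fold threshold. The 1 called between the HCC groups became 2 with DESeq2, its size factors, at least 10 counts in every library or only the 2 groups compared, 3 with no filter on low counts, 4 with total counts and 5 with no fold threshold. Leaving out a liver gave 0 to 3, with 0 without untreated replicate 2, treated replicate 2 or treated replicate 3.

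Changed signs were those of Gclm with total counts (0.066 in untreated and 0.13 in treated HCC against healthy livers), of Osgin1 in untreated HCC (0.26 with total counts, 0.20 with the replicate block, and, leaving out each liver, −0.42 without healthy replicate 3 to 0.39 without healthy replicate 1) and of Nqo1 between the HCC groups (−0.098 with total counts and, leaving out each liver, −0.070 without treated replicate 4 to 0.30 without treated replicate 2). The cause was not tested.

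Replicate numbers did not pair the HCC livers: deviations of same-numbered livers correlated at −0.121, −0.131 and −0.235. With the replicate block 5863, 1745 and 3044 genes were called in the 3 comparisons, and 3, 1 and 2 of the 9. Between the HCC groups Srxn1 was then −0.58 and not called and Osgin1 −0.82 and called, and Nfe2l2 in treated HCC against healthy livers was 0.56 and not called.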
